A study of Sus scrofa with 12 samples.

Results

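Heat shock chaperones of the cytosol and the mitochondria were examined in the Biceps femoris, a ham muscle, of newborn pigs. The gene set was defined by symbol as the HSP110, HSP70, HSP90, HSP40, small HSP and CCT families, the chaperones of the mitochondrial matrix, their cofactors and the heat shock factors HSF1 and HSF2. Of 44 symbols, 34 had a row among the 22861 genes of the expression table, and all 34 passed the filter on low values together with 11875 genes in all. The 10 symbols without a row here were HSPA2, DNAJA4, DNAJB6, CCT5, HSPB1, HSPB2, HSPB3, HSPB7, CRYAB and BAG2, and these were not analysed here. The symbols were matched through a gene name table, and no row was chosen by its values.

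The animals were male piglets of postnatal day 1, 6 of the pure Iberian breed (IB) and 5 Iberian x Duroc crossbreds (IBxDU). All were born to pure Iberian sows raised on the same farm, mated either to Iberian or to Duroc boars, so that the genetic types differed in the sire. The labels describe 6 IBxDU animals, of which 1 (IBxDU-425) has no column of values and was not analysed here. The study states that it discarded 1 IBxDU pig because its sample lay far from where it should have grouped in a clustering. The litters of single piglets are not stated, so any littermates were counted as independent and p-values may be too small for that reason. Each value is an RPKM, the reads on the exons of a gene scaled by exon length and by the mapped reads of the library, from 1 mRNA library per animal.

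Heat shock proteins keep other proteins soluble and help them to fold. HSP70 binds short hydrophobic stretches of an unfolded chain and releases them in a cycle driven by ATP, which HSP40 (J-domain) partners start and HSP110 proteins reset. HSP90 finishes a set of signalling and structural clients with the help of cofactors, the barrel of the CCT complex folds actin and tubulin, and HSP60 with its lid HSP10 does similar work inside mitochondria. Small HSPs hold unfolding proteins without ATP and are abundant in striated muscle, where the sarcomere is kept in repair. HSF1 is the transcription factor that switches many of these genes on under proteotoxic stress.

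DNAJA1 was a chaperone gene for which the study designed quantitative PCR primers. The oligonucleotides are shown as listed by the study, and their match to DNAJA1 was not checked here. They are written 5′ to 3′ in lower case, in the order of the primer table.
DNAJA1, first primer: attgaaaaaggcttacaggaaact
DNAJA1, second primer: gggggagccaaaaccaccac

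Library depth overlapped between the genetic types. Whole reads could be recovered from the steps between values, and their sums ran from 12903155 in IB-504 to 22780618 in IBxDU-426. Skeletal muscle markers dominated every library, with summed levels of 38676 to 46577 RPKM in IB and 27793 to 60650 RPKM in IBxDU over the 5 of 10 markers with a row. IBxDU-402 stood apart by non-muscle markers, and IBxDU-429 by the lowest sum of skeletal muscle markers. The 4 macrophage markers of IBxDU-402 summed to 65.1 RPKM against at most 13.9 RPKM in any other animal, and its 5 fibroblast markers, of which PDGFRA was listed at 0 in every library, to 5685 RPKM against at most 2633 RPKM. Lymphocyte markers were at or near 0, with at most 1.43 RPKM summed over 3 genes, again in IBxDU-402. Slow fibre markers summed to 647 to 5431 RPKM in IB and 879 to 3835 RPKM in IBxDU, and fast fibre markers to 1790.1 to 4282 RPKM and 1338 to 5849 RPKM, so that the sums of both lists overlapped between the genetic types. Single fast fibre markers differed more than their sum. The log2 fold change (IBxDU minus IB) was 4.79 for PVALB (limma adjusted p = 0.405), 1.03 for MYBPC2 and -0.03 for ATP2A1, the most abundant of them. In whole muscle, fewer cells of a type and less RNA per cell cannot be told apart.

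Most folding chaperones had higher mean levels in the IBxDU piglets, led by HSPH1, DNAJA1, CHORDC1, HSPD1 and HSPA8, while both small HSPs and the J-domain genes DNAJB4 and DNAJB5 had higher means in IB. No gene of the 34 passed a Benjamini-Hochberg adjusted p of 0.05 over all 11875 genes in limma, where 0.0168% of all genes passed, and the lowest adjusted p was 0.417 (HSPD1). At an unadjusted p under 0.05, 16 of the 34 were higher in IBxDU, where 6.0% of all genes were, and 1 (HSPB6) was higher in IB, where 2.02% of all genes were. The thresholds of the study, an unadjusted p of 0.01 or less with a fold of 1.5 or more, were applied here to limma. At these thresholds 4 of the 34 were higher in IBxDU (HSPD1, DNAJA1, CCT4 and CHORDC1), against 0.985% of all genes. In IB 0 were higher, against 0.522% of all genes. The study itself used an edgeR-based test of exon read counts, and reported HSPH1, HSPA4L and DNAJA1 as upregulated in IBxDU. Of these, HSPH1 and HSPA4L were not among the 4 genes found here with limma. Their unadjusted limma p-values, 0.0133 and 0.0102, lay just over the limit of 0.01. For none of the 34 were the groups free of overlap, which 1.04% of all genes were.

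The general level of the table was tilted towards IBxDU. Of all genes tested, 66.9% had a higher mean log2 level in IBxDU and their median log2 fold change was 0.13, whereas 28 of the 34 chaperone genes were higher with a median of 0.36. Scaling the animals by their upper quartile moved the median of all genes by -0.12, to 0.01, and left 26 of 34 chaperone genes higher in IBxDU, against 51.4% of all genes, with a median of 0.23. Under that scaling the split of genes at an unadjusted p under 0.05 was 8 higher in IBxDU and 2 higher in IB, against 3.02% and 4.37% of all genes. The count of 4 at the study's thresholds became 2 with upper quartile scaling and 0 with median-of-ratios scaling, against 0.547% and 0.531% of all genes. It also depended on single animals. Without IBxDU-426 it fell to 1 (0.986% of all genes), and without IB-431, IB-504 or IBxDU-429 to 2 (1.18%, 0.699% and 0.447%). It reached 7 without IBxDU-402 (1.55%) and 10 without IBxDU-412 (2.16%), where the share of all genes rose as well.

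**Figure D1:**
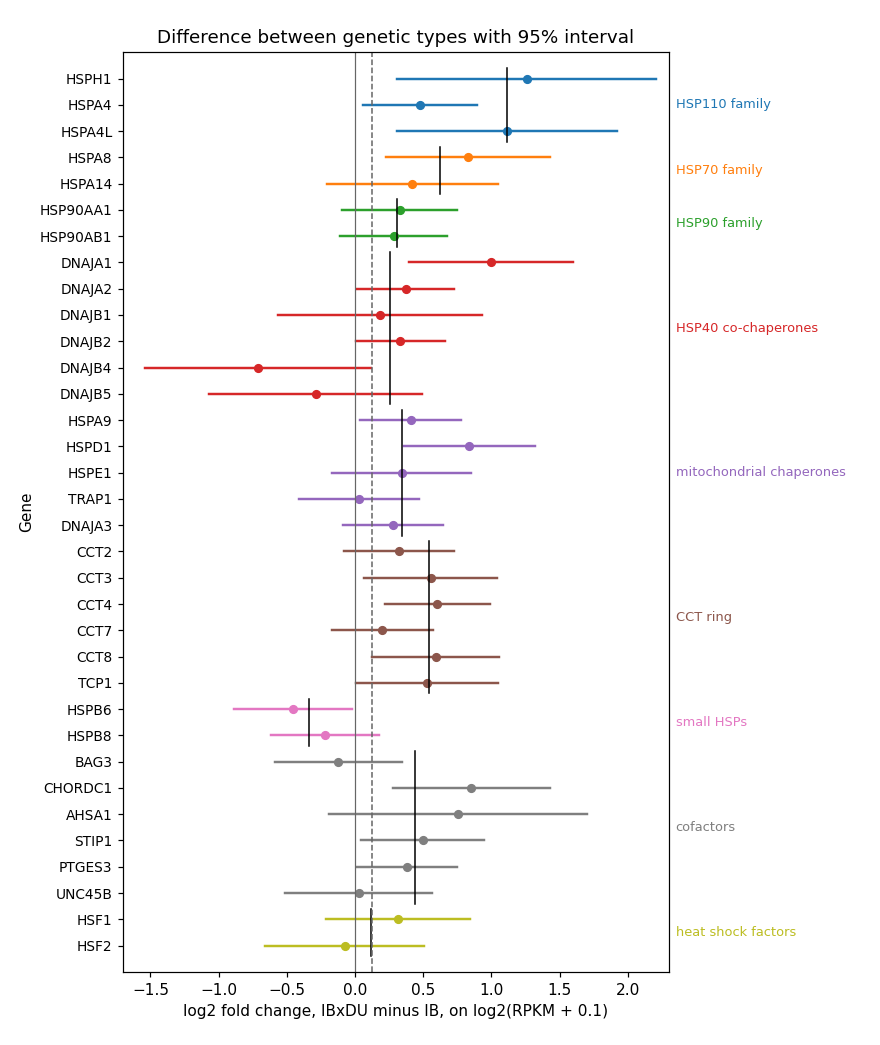
Log2 fold change of each of the 34 chaperone genes (IBxDU minus IB, on log2(RPKM + 0.1); points) with its 95% interval from limma (lines), ordered by family. Short black lines mark the median of each family and the dashed line the median of all genes tested (0.13); the family medians lie to the right of it except those of the small HSPs (-0.34) and, just left of it, the heat shock factors (0.12, and about 0 after rescaling).

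The 3 genes of the HSP110 family had log2 fold changes of 0.48 to 1.26. Their median, 1.11, is the value of HSPA4L, a gene near the limit of the filter, and with a pseudocount of 1 it became 0.46, below those of the HSP70 family (0.61) and the CCT ring (0.53). HSPH1 (HSP105), which resets HSP70 and holds unfolded chains, ranged from 6.18 through a median of 8.17 to 17.0 RPKM in the 6 IB piglets. In IBxDU it stood at 11.2 RPKM in IBxDU-402, 7.75 in IBxDU-412, 43.4 in IBxDU-426, 24.8 in IBxDU-427 and 51.0 in IBxDU-429. The 3 last animals lay above every IB piglet, and the 2 first within the IB range. The means were 9.51 ± 3.85 RPKM (SD, n = 6) in IB and 27.6 ± 19.2 RPKM (SD, n = 5) in IBxDU, a ratio of 2.90. The log2 fold change was 1.26 (SE 0.44, 95% interval 0.31 to 2.21, limma adjusted p = 0.547), and the exact permutation test over the 462 relabelings gave a two-sided p of 0.0476, where the smallest possible is 0.00216.

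HSPA4 (APG-2), the most abundant HSP110 gene per length, ranged from 19.8 through 21.6 to 28.6 RPKM in IB. It reached 23.5 RPKM in IBxDU-402, 23.9 in IBxDU-412, 36.6 in IBxDU-426, 33.9 in IBxDU-427 and 45.2 in IBxDU-429. The same 3 animals exceeded all IB piglets, at a log2 fold change of 0.48 (SE 0.19, limma adjusted p = 0.572). HSPA4L (APG-1), a relative of HSPA4 best known from the testis of mice, was close to the filter, from 0.120 through 0.161 to 0.515 RPKM in IB and at 0.541, 0.496, 0.736, 0.388 and 0.869 RPKM in IBxDU-402, IBxDU-412, IBxDU-426, IBxDU-427 and IBxDU-429. All 5 IBxDU values were above the IB mean of 0.244 RPKM, and 3 were above every IB piglet. These levels rest on 7 to 69 reads per animal. HSPA4L passed the filter through IBxDU alone, with group means of 0.244 and 0.606 RPKM about its limit of 0.5 RPKM, so that its inclusion already favoured this direction. The log2 fold change of 1.11 (SE 0.37, limma adjusted p = 0.539, exact permutation p = 0.0195) became 0.37 with a pseudocount of 1, which shrinks low values. HSPA4L differed from HSPH1 in which IB animals were high, since its top IB value was in IB-323, where HSPH1 was lowest.

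**Figure D2:**
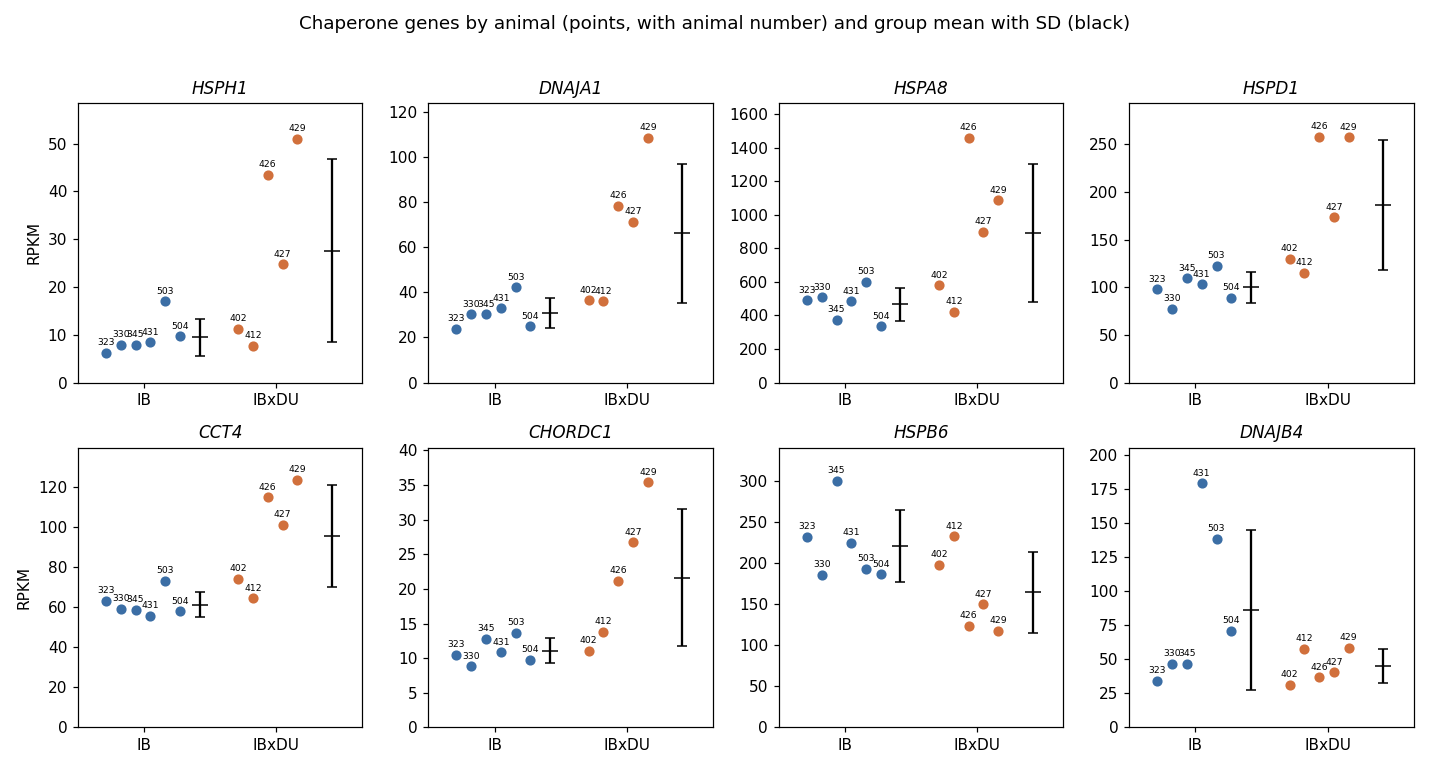
RPKM of 8 chaperone genes in each animal (points with the animal number; IB blue, IBxDU orange), with the group mean and SD in black (n = 6 IB, 5 IBxDU) and each axis starting at 0. In HSPH1, DNAJA1, HSPA8, HSPD1, CCT4 and CHORDC1 the animals IBxDU-426, IBxDU-427 and IBxDU-429 lie above all IB piglets; HSPB6 shows the same 3 animals below all IB piglets, and DNAJB4 is high in IB-431 and IB-503.

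HSPA8 (HSC70), the constitutive HSP70 that also drives uncoating of clathrin and chaperone-mediated autophagy, was the most abundant of the 34 genes per length. It ranged from 336 through 487 to 601 RPKM in IB, and was 579 RPKM in IBxDU-402, 423 in IBxDU-412, 1462 in IBxDU-426, 901 in IBxDU-427 and 1088 in IBxDU-429. Again 3 IBxDU animals were above, and 2 within, the IB range. The means were 466 ± 96.1 RPKM (SD, n = 6) and 891 ± 412.5 RPKM (SD, n = 5), with a log2 fold change of 0.83 (SE 0.28, limma adjusted p = 0.539, exact permutation p = 0.0368). HSPA14, an atypical HSP70 bound to ribosomes, averaged 14.7 ± 4.29 RPKM (SD, n = 6) in IB and 20.7 ± 9.22 RPKM (SD, n = 5) in IBxDU, with a 95% interval of -0.21 to 1.05 for its log2 fold change. HSP70 copies are alike over long stretches, and the counting of reads that match several copies is not stated, which leaves the split between copies uncertain.

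For the cytosolic HSP90 genes, the intervals of both differences included 0. HSP90AA1, the inducible form, ranged from 229 through 269 to 330.3 RPKM in IB and was 267, 227, 439, 347 and 466 RPKM in IBxDU-402, IBxDU-412, IBxDU-426, IBxDU-427 and IBxDU-429. The IB range lay inside the IBxDU range, with IBxDU-412 the lowest animal of all and IBxDU-426, IBxDU-427 and IBxDU-429 above every IB piglet. HSP90AB1, the constitutive form, averaged 123 ± 22.8 RPKM (SD, n = 6) in IB and 150.1 ± 32.3 RPKM (SD, n = 5) in IBxDU. The log2 fold changes were 0.33 for HSP90AA1 (95% interval -0.10 to 0.75) and 0.28 for HSP90AB1 (95% interval -0.11 to 0.68). The ratio of HSP90AA1 to HSP90AB1 in RPKM was 1.78 to 2.61 in IB and 2.01 to 2.53 in IBxDU, a log2 difference of 0.04 (exact permutation p = 0.695). The size of this ratio rests on the exon length used for each gene. In reads, HSP90AB1 was above HSP90AA1 in every animal (22467 against 12902 in IB-323).

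The HSP40 co-chaperones were divided, with 4 higher in IBxDU and 2 higher in IB by their means, also after rescaling. DNAJA1 (HDJ-2), which delivers chains to HSC70 and aids import into mitochondria, ranged from 23.9 through 30.3 to 42.3 RPKM in IB. It was 36.5 RPKM in IBxDU-402, 36.0 in IBxDU-412, 78.4 in IBxDU-426, 71.4 in IBxDU-427 and 109 in IBxDU-429. All 5 IBxDU values were above the IB mean, and 3 were above every IB piglet. The means of 30.8 ± 6.64 RPKM (SD, n = 6) and 66.2 ± 30.7 RPKM (SD, n = 5) gave a ratio of 2.15 and a log2 fold change of 1.00 (SE 0.28, 95% interval 0.40 to 1.59, limma adjusted p = 0.437, exact permutation p = 0.0108). Its paralog DNAJA2 was at 28.9 ± 4.05 RPKM (SD, n = 6) and 37.8 ± 8.25 RPKM (SD, n = 5), and DNAJB2, a J-protein that hands clients to the proteasome, was above every IB piglet in 4 IBxDU animals at a log2 fold change of 0.33.

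DNAJB4, a J-protein of heart and skeletal muscle and the most abundant of this family per length, had its higher mean in IB. It ranged from 34.3 through 58.9 to 179 RPKM in IB, and was 31.4, 57.7, 36.6, 40.4 and 58.2 RPKM in IBxDU-402, IBxDU-412, IBxDU-426, IBxDU-427 and IBxDU-429. The IB mean was carried by IB-431 with 179 RPKM and IB-503 with 138 RPKM, whereas the IBxDU values lay within or below the IB range. The log2 fold change was -0.71 (SE 0.39, limma adjusted p = 0.622, exact permutation p = 0.171). DNAJB5 was likewise highest in IB-431 (96.9 RPKM) and IB-503 (92.9 RPKM), against 30.7 to 42.0 RPKM in IBxDU. DNAJB1 (HDJ-1), the classical stress-inducible HSP40, was 51.8 RPKM in IB-431 and 13.7 to 17.5 RPKM in the other IB animals, and 41.0 RPKM in IBxDU-429 at the top of an IBxDU range from 13.5 RPKM. Its log2 fold change of 0.18 turned to -0.05 without IBxDU-429.

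Genes of rapid response were also high in IB-431. Immediate early genes, of which 9 were tested, summed to 3094 RPKM in IB-431, to 106 to 746 RPKM in the other IB piglets and to 67.2 to 355 RPKM in IBxDU. ATF3, a stress-response transcription factor, was 1513 RPKM in IB-431 and 437 RPKM in IB-503, against 14.1 to 53.5 RPKM in IBxDU, with a log2 fold change of -2.14 (SE 0.96, limma adjusted p = 0.609). All 9 immediate early genes had a higher mean in IB, also after rescaling, 1 of them at an unadjusted p under 0.05, against 2.02% of all genes. In IB-503 the sum of the 9 genes (746 RPKM) was close to that of IB-330 (704 RPKM), where DNAJB4 was 46.7 RPKM. The part of these genes in the levels of DNAJB1, DNAJB4 and DNAJB5 was not tested.

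In the mitochondrial matrix, 4 of 5 chaperone genes had a higher mean in IBxDU under every scaling, and TRAP1 was at 41.0 ± 12.7 RPKM (SD, n = 6) in IB and 40.9 ± 7.99 RPKM (SD, n = 5) in IBxDU, with a log2 fold change that turned negative under both rescalings. HSPD1 (HSP60), the barrel that folds imported proteins, had the smallest p of the 34 genes. It ranged from 77.3 through 100.5 to 123 RPKM in IB, and was 130.1 RPKM in IBxDU-402, 115 in IBxDU-412, 258 in IBxDU-426, 173 in IBxDU-427 and 257 in IBxDU-429. In this gene 4 of 5 crossbreds were above every IB piglet and IBxDU-412 was the exception. The means were 99.9 ± 15.9 RPKM (SD, n = 6) and 187 ± 68.2 RPKM (SD, n = 5), with a log2 fold change of 0.84 (SE 0.22, 95% interval 0.36 to 1.32, limma adjusted p = 0.417, exact permutation p = 0.00433).

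HSPE1 (HSP10), the lid of the HSP60 barrel, was the most abundant mitochondrial chaperone per length, and lies next to HSPD1 in the RefSeq gene table of assembly Sscrofa11.1. HSPE1 ranged from 204 through 257 to 472 RPKM in IB, and was 405 RPKM in IBxDU-402, 245 in IBxDU-412, 463 in IBxDU-426, 356 in IBxDU-427 and 407 in IBxDU-429, so that no crossbred exceeded IB-323. Its log2 fold change was 0.34 (95% interval -0.17 to 0.85). The ratio of HSPE1 to HSPD1 was 2.17 to 4.82 in IB and 1.58 to 3.11 in IBxDU, lowest in IBxDU-429 and highest in IB-323, so that the neighbours were not in the same order over the animals, and differed by -0.50 on the log2 scale (exact permutation p = 0.0887). HSPA9 (mortalin), the HSP70 of the import motor, averaged 232 ± 46.3 RPKM (SD, n = 6) in IB and 307 ± 57.4 RPKM (SD, n = 5) in IBxDU. DNAJA3 (TID1), its J-domain partner, and TRAP1, the mitochondrial HSP90, had log2 fold changes of 0.27 and 0.03.

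All 6 genes of the CCT ring had a higher mean in IBxDU, also after rescaling, with log2 fold changes from 0.20 (CCT7) to 0.60 (CCT4) and a median of 0.54. At an unadjusted p under 0.05, 4 of the 6 were higher in IBxDU, where 6.0% of all genes were. With upper quartile and median-of-ratios scaling 2 and 1 were, against 3.02% and 3.03% of all genes. Their products sit in 1 complex as distinct subunits. CCT4 ranged from 55.5 through 58.8 to 73.1 RPKM in IB, and was 74.2 RPKM in IBxDU-402, 64.3 in IBxDU-412, 115 in IBxDU-426, 101 in IBxDU-427 and 123 in IBxDU-429. As for HSPD1, 4 crossbreds were above every IB piglet (limma adjusted p = 0.465, exact permutation p = 0.00433). CCT7, the most abundant ring gene per length, ranged from 92.5 through 122 to 164 RPKM in IB and was 146, 106, 160.3, 138 and 162 RPKM in IBxDU-402, IBxDU-412, IBxDU-426, IBxDU-427 and IBxDU-429, with no crossbred above IB-323. The other subunits CCT2, CCT3, CCT8 and TCP1 (CCT1) had means of 68.9, 93.2, 56.9 and 44.7 RPKM in IB and 87.8, 140.2, 89.1 and 66.5 RPKM in IBxDU. Summed over the 6 genes, the ring stood at 363 to 540.3 RPKM in IB, and at 510.5 RPKM in IBxDU-402, 418 in IBxDU-412, 753 in IBxDU-426, 616 in IBxDU-427 and 809.6 in IBxDU-429.

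**Figure D3:**
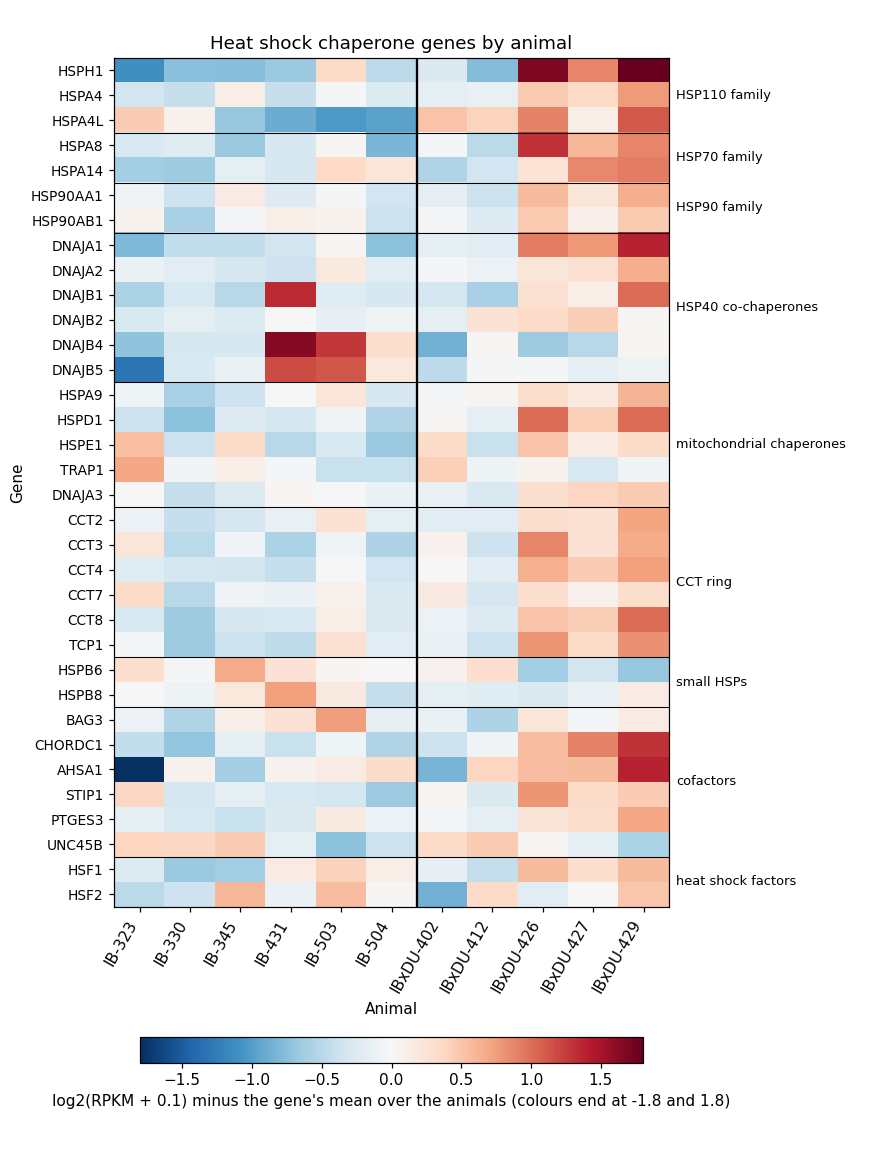
Log2(RPKM + 0.1) of the 34 chaperone genes in each animal, as the difference from the mean of that gene over the 11 animals (red above it, blue below it), with genes in rows by family and animals in columns, IB left and IBxDU right of the thick line. The columns of IBxDU-426, IBxDU-427 and IBxDU-429 are mostly red, those of IBxDU-402 and IBxDU-412 mostly pale, and DNAJB4 and DNAJB5 are red in IB-431 and IB-503.

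The small HSPs were the family with a negative median (-0.34), which rests on the 2 of 7 symbols with a row. HSPB8 (HSP22), which works with BAG3 to clear damaged sarcomere proteins by autophagy, ranged from 218 through 309 to 486 RPKM in IB, and was 261, 249.9, 244, 269 and 322.5 RPKM in IBxDU-402, IBxDU-412, IBxDU-426, IBxDU-427 and IBxDU-429. The IBxDU values lay inside the IB range, and the log2 fold change was -0.22 (95% interval -0.61 to 0.18). HSPB6 (HSP20), a muscle small HSP that binds actin regulators, ranged from 185 through 209 to 300.4 RPKM in IB, and was 198 RPKM in IBxDU-402, 233 in IBxDU-412, 123 in IBxDU-426, 149.8 in IBxDU-427 and 118 in IBxDU-429. Here IBxDU-426, IBxDU-427 and IBxDU-429 were below every IB piglet, the same animals that were above them for HSPH1. The log2 fold change was -0.45 (SE 0.20, limma adjusted p = 0.607, exact permutation p = 0.0866).

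Among the cofactors, CHORDC1 (morgana), an HSP90 partner, ranged from 8.83 through 10.7 to 13.6 RPKM in IB, and was 11.1 RPKM in IBxDU-402, 13.8 in IBxDU-412, 21.2 in IBxDU-426, 26.7 in IBxDU-427 and 35.4 in IBxDU-429. In it 4 crossbreds were above every IB piglet, and the log2 fold change was 0.85 (SE 0.27, 95% interval 0.28 to 1.43, limma adjusted p = 0.515, exact permutation p = 0.0108). STIP1 (HOP), which bridges HSP70 and HSP90 and was the most abundant cofactor per length, ranged from 73.2 through 94.2 to 149.7 RPKM in IB and was 118, 96.4, 201, 145 and 158 RPKM in IBxDU-402, IBxDU-412, IBxDU-426, IBxDU-427 and IBxDU-429. In STIP1 only IBxDU-426 and IBxDU-429 exceeded the top IB animal, IB-323. AHSA1, which speeds the ATPase of HSP90, spread widely, its lowest value being 3.81 RPKM (IB-323) and its highest 43.5 RPKM (IBxDU-429), and its log2 fold change of 0.75 had a 95% interval of -0.19 to 1.70. PTGES3 (p23), the late HSP90 cofactor, was at 56.1 ± 7.74 RPKM (SD, n = 6) in IB and 74.2 ± 17.7 RPKM (SD, n = 5) in IBxDU.

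UNC45B and BAG3 had intervals that included 0. UNC45B, the myosin chaperone of striated muscle, averaged 82.3 ± 26.2 RPKM (SD, n = 6) in IB and 82.6 ± 22.4 RPKM (SD, n = 5) in IBxDU, with a 95% interval of -0.51 to 0.57 for its log2 fold change and a sign that turned under both rescalings. BAG3, the partner of HSPB8, averaged 82.0 ± 25.9 RPKM (SD, n = 6) in IB, with its top value of 127 RPKM in IB-503, and 73.7 ± 14.4 RPKM (SD, n = 5) in IBxDU.

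For both heat shock factors the interval of the difference included 0. HSF1 ranged from 15.1 through 23.1 to 32.3 RPKM in IB, and was 21.6 RPKM in IBxDU-402, 17.8 in IBxDU-412, 35.9 in IBxDU-426, 29.8 in IBxDU-427 and 35.7 in IBxDU-429. Only IBxDU-426 and IBxDU-429 were above every IB piglet, and the log2 fold change was 0.31 (95% interval -0.22 to 0.85, exact permutation p = 0.262). HSF2, a factor more tied to development than to stress, ranged from 9.05 through 12.3 to 19.3 RPKM in IB and was 6.94, 16.1, 11.1, 12.7 and 18.0 RPKM in IBxDU-402, IBxDU-412, IBxDU-426, IBxDU-427 and IBxDU-429. Its groups overlapped throughout, at a log2 fold change of -0.07 (95% interval -0.66 to 0.51). RNA of HSF1 does not show its activity, which is set by release from chaperones and by phosphorylation.

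The high values were not evenly spread over the crossbreds. IBxDU-429 held the highest value of 16 of the 34 genes (47.1%) and IBxDU-426 of 6 (17.6%), where these animals were the highest in 27.9% and 3.62% of all genes tested. IBxDU-402 was the highest animal in 0 of the 34 genes, although it was the highest in 22.0% of all genes. In all, 23 of the 34 genes peaked in an IBxDU animal, and 64.9% of all genes did. The summed level of the 34 genes was 2643 to 3684 RPKM in IB, and 3431 RPKM in IBxDU-402, 2989 in IBxDU-412, 5223 in IBxDU-426, 4119 in IBxDU-427 and 5121 in IBxDU-429. Depth moved with these sums in part. IBxDU-426 had the highest sum of all and the most reads (22780618), IB-503 the highest sum and the most reads (22472595) of the IB piglets, and IB-504 the lowest sum and the fewest reads (12903155), whereas IBxDU-427 and IBxDU-429 had 14781880 and 14381107 reads. The part of depth in the result was not tested. IBxDU-429 also had the lowest summed levels of skeletal muscle markers (27793 RPKM, against at least 38676 RPKM in every other animal) and of fast fibre markers (1338 RPKM), and the part of this in the result was not tested.

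The levels of HSPH1 across the 11 animals, with genetic type not in the model, were compared with those of the other 33 genes. In 20 genes Pearson's r was positive at a Benjamini-Hochberg adjusted p under 0.05 over the 33 relations (100000 permutations), and in 1, HSPB6, it was negative. The closest were DNAJA1 (r = 0.96, Spearman's rho = 0.85), CCT4 (r = 0.96, rho = 0.70), CCT8 (r = 0.95, rho = 0.85) and HSPD1 (r = 0.93, rho = 0.75), with permutation p-values of 4e-05, 0.0001, 2e-05 and 0.00024 and adjusted values of 0.00066, 0.0011, 0.00066 and 0.00141 for r. For rho the permutation p-values were 0.0015, 0.0202, 0.0015 and 0.01, and the adjusted values 0.0121, 0.0468, 0.0121 and 0.0339. HSPB6 had r = -0.90 and rho = -0.85, with permutation p-values of 0.0003 and 0.0018 and adjusted values of 0.0014 and 0.0121. Of the 20 genes, 16 also passed for rho. The share of all genes tested that followed HSPH1 in this way was not computed, so these counts have no background beside them.

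Most coefficients were smaller without the animals that carried the extremes. Without IBxDU-429 and IBxDU-426, the animals farthest from the median of HSPH1, all 20 coefficients stayed above 0 and 17 stayed above 0.5, with r = 0.89 for DNAJA1, 0.86 for CCT4, 0.89 for CCT8, 0.77 for HSPD1 and -0.72 for HSPB6. With deviations from the mean of each genetic type in place of the levels, 18 genes passed. Within the 6 IB piglets r was positive in 25 of 33 genes and 0 passed the adjusted threshold. There, HSPA14 (r = 0.84, exact permutation p = 0.0111) and UNC45B (r = -0.87, exact permutation p = 0.00417) were the genes under an unadjusted 0.05, with adjusted values of 0.183 and 0.138 (smallest possible p 0.00278). The 5 IBxDU animals are too few for a coefficient of their own. All levels share the scaling of their library, and the sources of these relations were not tested.

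**Figure D4:**
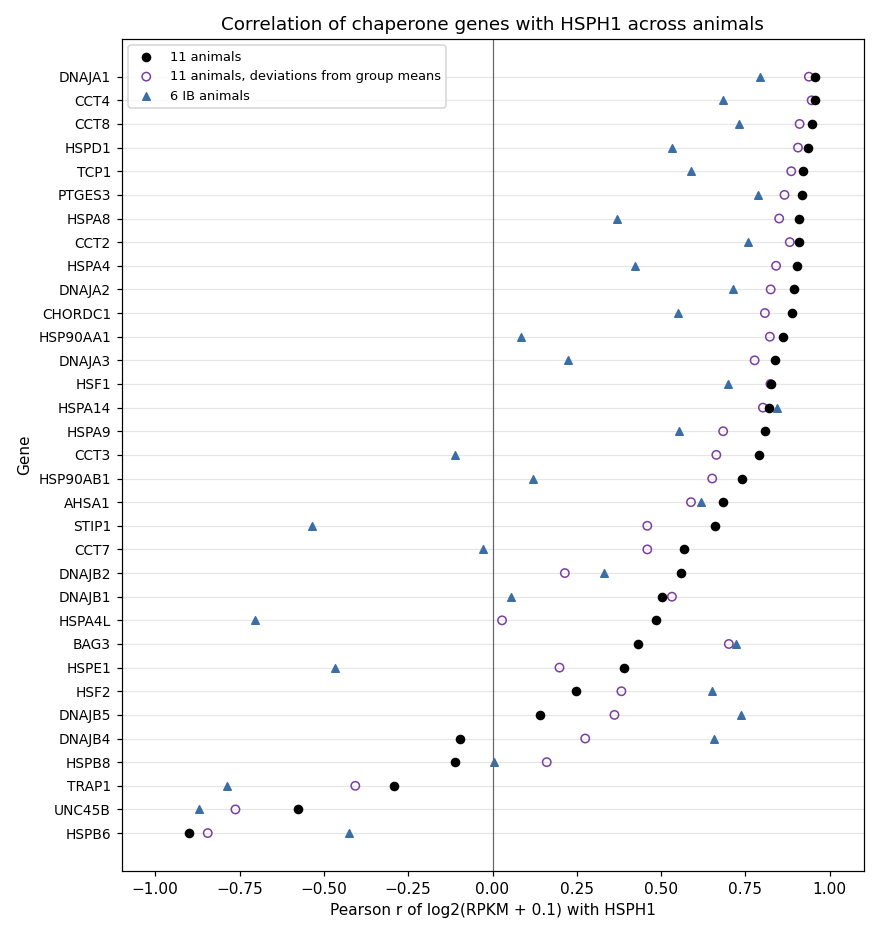
Pearson's r between HSPH1 and each of the other 33 chaperone genes on log2(RPKM + 0.1), over the 11 animals (black), over the 11 animals as deviations from the mean of their genetic type (open circles) and within the 6 IB piglets (blue triangles). DNAJA1, CCT4, CCT8 and HSPD1 stand at the top in all animals (0.96 to 0.93), HSPB6 at the bottom (-0.90), and the triangles spread more widely.

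Other folding genes were read from the same fit. Among 13 chaperones of the endoplasmic reticulum, all 13 had a higher mean in IBxDU (12 after either rescaling). Of them 8 had an unadjusted p under 0.05, against 6.0% of all genes (6 after either rescaling, against 3.02% and 3.03%). At the study's thresholds 3 were higher in IBxDU, against 0.985% of all genes, and none passed an adjusted p of 0.05. HSP90B1 (GRP94), HSPA5 (BiP) and DNAJB11 had log2 fold changes of 0.86, 0.86 and 0.66 (limma adjusted p = 0.413, 0.464 and 0.539). Their order over animals was not that of the cytosolic genes, since the 13 genes summed to 1144 RPKM in IBxDU-402 and 921 RPKM in IBxDU-429, against 466, 576 and 594 RPKM in IBxDU-412, IBxDU-426 and IBxDU-427 and 372 to 526 RPKM in IB. IBxDU-402 was also the animal high in macrophage and fibroblast markers, and the part of those cells in the result was not tested.

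Of 20 further HSP70, HSP40 and small HSP genes tested, 17 had a higher mean in IBxDU (15 after either rescaling). Of these 1, DNAJC7 (TPR2, a carrier between HSP70 and HSP90), had an unadjusted p under 0.05, against 6.0% of all genes. After either rescaling 0 had, against 3.02% and 3.03% of all genes. The means of DNAJC7 were 45.3 ± 8.63 RPKM (SD, n = 6) in IB and 63.4 ± 12.3 RPKM (SD, n = 5) in IBxDU. Of 19 further co-chaperone and prefoldin genes tested, 15 were higher (13 after either rescaling). An unadjusted p under 0.05 was found for 3, namely the ortholog of CCT6A, PPID and FKBP4, against 6.0% of all genes. With upper quartile and median-of-ratios scaling it was found for 2 and 1, against 3.02% and 3.03% of all genes. The CCT6A ortholog, named from the supplementary table of the study that called it in these animals and so no independent evidence, was 39.7, 32.7, 49.3, 55.1 and 83.8 RPKM in IBxDU-402, IBxDU-412, IBxDU-426, IBxDU-427 and IBxDU-429 and 15.9 to 25.0 RPKM in IB. Its groups did not overlap, and it had a log2 fold change of 1.24 (SE 0.22, limma adjusted p = 0.227).

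All 6 mitochondrial import and protease partners tested had a higher mean in IBxDU, though 3 after either rescaling, 0 of them at an unadjusted p under 0.05, with PPIF (cyclophilin D) at a log2 fold change of 0.54. Heat-inducible genes outside the chaperones were divided. Of 5 tested, 2 had a higher mean in IBxDU and 3 in IB (1 and 4 after either rescaling), with a median log2 fold change of -0.08. Among them UBB had a log2 fold change of -0.11 (limma adjusted p = 0.888). ZFAND2A (AIRAP), a gene known to respond to heat, had one of 1.32 (SE 0.54, limma adjusted p = 0.574). ZFAND2A stood at 32.9 RPKM in IBxDU-429, 16.0 in IBxDU-426, 14.1 in IBxDU-427 and 13.1 in IB-503 and at most 5.54 in the other animals.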

How the data were processed

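The Biceps femoris RNA of 12 newborn piglets was sequenced by the authors in paired reads and mapped to Sscrofa10.2 with CLC Bio Genomic Workbench. An RPKM for every gene was deposited for 11 of them. The authors' own comparison was deposited as p-value and signed fold change (held as a score) columns, which were not used. After a filter (mean over 0.5 RPKM in at least 1 genetic type), log2(RPKM + 0.1) was compared between genetic types in limma 3.58.1 (trended, R 4.3.3) with Benjamini-Hochberg adjustment over 11875 genes; scipy 1.17.1, pandas 2.3.3, numpy 2.4.6, Python 3.11.15 and statmod 1.5.0 were also used. A test of counts had been planned in case the table held them; it holds RPKM. Single genes were tested by exact permutation of the animals. Steps between RPKM values gave whole reads (to 0.0001 reads) for 16946 of 16953 genes above 0. A read may stand for a read pair, and these reads served only as a measure of depth and of the reads on HSPA4L and the HSP90 genes. Steps were tested on simulated data.

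Of 22861 identifiers, 11451 had a symbol. The genes and lists were chosen with earlier results of these data known, and HSPH1, HSPA4L, DNAJA1, CCT4, HSF1, HSF2 and the CCT6A ortholog had been named by the study in these animals. Values per animal are given for genes the study named, those at an unadjusted p of 0.01 or less, the most abundant gene of each family and the HSPD1 neighbour HSPE1, and up to 3 genes with the smallest p from each other list, apart from an item that is not reported here; HSPB6 and single values of DNAJB1, DNAJB5, AHSA1 and BAG3 were added after their values were seen. Alternatives were a pseudocount of 1, no filter, upper quartile and median-of-ratios scaling, limma without the trend or with robust fitting, and leaving out each animal in turn.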

Additional observations from a re-analysis of the deposited data

Results flagged for a closer look

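Within the IB piglets, HSPH1 was 17.0 RPKM in IB-503, and DNAJB1 was 51.8 RPKM in IB-431, each far from the nearest of the other 5 animals (gap over the range of the group 0.678 and 0.9004). In 68 groups of values looked at, 2 such values were found, where chance gives 1 in 20 groups, or 3.4.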

How the results depend on the processing

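Each gene was fitted under 17 alternatives. Of 578 values, 18 turned sign, in 5 genes near 0, and none of the 578 passed an adjusted p of 0.05 in limma (lowest 0.158). Upper quartile and median-of-ratios scaling gave 8 and 7 genes higher in IBxDU at an unadjusted p under 0.05 in place of 16, 2 and 2 higher in IB in place of 1, and 2 and 0 at the study's thresholds in place of 4. The shares of all genes beside these were 3.02% and 3.03%, 4.37% and 4.42%, and 0.547% and 0.531%. Without the trend, 0 genes were higher in IB at an unadjusted p under 0.05, against 2.04% of all genes. Leaving out 1 animal at a time gave 8 to 19 genes higher in IBxDU (8 without IB-330 or IBxDU-426, 9 without IB-504 or IBxDU-429, 10 without IB-431 or IBxDU-427) and 0 to 1 higher in IB at an unadjusted p under 0.05. The shares of all genes ran from 2.86% to 8.41% and from 1.31% to 3.47%. At the study's thresholds, leaving out 1 animal gave 1 to 10 higher in IBxDU (0.447% to 2.16% of all genes) and 0 to 1 higher in IB (0.342% to 1.1%). For the relations with HSPH1 it gave 17 to 21 in place of 20. A pseudocount of 1 gave the HSP110 family a median of 0.46, because it shrinks the low values of HSPA4L. The other causes were not tested. TRAP1 was -0.0948 and -0.0936 and UNC45B -0.0945 and -0.0934 under upper quartile and median-of-ratios scaling. Leaving out 1 animal at a time gave log2 fold changes of -0.0785 to 0.17 for TRAP1 (below 0 without IB-503, IB-504 or IBxDU-402), -0.12 to 0.17 for UNC45B (below 0 without IB-431, IB-503, IB-504, IBxDU-402 or IBxDU-412), -0.0459 (without IBxDU-429) to 0.47 for DNAJB1, -0.24 to 0.016 for BAG3 (above 0 without IB-503 or IBxDU-412) and -0.21 to 0.13 for HSF2 (above 0 without IB-345, IB-503 or IBxDU-402). No paired analysis was possible because the genetic types share no animal numbers. HSPA4L, with 7 to 69 reads per animal, is the gene whose precision depth limits most.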
